A study of Mus musculus with 12 samples.

Results

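Transcripts of myeloid, erythroid and platelet genes were followed in libraries made from purified mouse splenic B cells. The 40 genes were chosen by name: every transcript row carrying one of the names was taken and summed per gene, and 39 of the 40 names were present among the 32699 gene symbols of the table. The missing name is Hba-a1. The 39 genes comprised 16 monocyte and macrophage genes, 10 neutrophil genes, 3 dendritic cell genes, 4 erythroid genes, 5 platelet genes and Flt1, a receptor for vascular endothelial growth factors that was kept apart from the lineages. All 39 passed the filter on low counts, which a gene can pass through its level in 1 group.

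The study compared B cells labelled KO for Chd4, which encodes an ATP-dependent chromatin remodeller of the NuRD complex, with B cells labelled WT. The 4 groups of 3 libraries were KO at 48 hr (replicates 10, 11 and 12), WT at 48 hr (replicates 7, 8 and 9), KO at 0 hr (replicates 4, 5 and 6) and WT at 0 hr (replicates 1, 2 and 3). The 48 hr cells had been cultured with 10 μg/ml lipopolysaccharide (LPS) and 25 ng/ml interleukin 4 (IL-4), a combination that activates B cells, and the 0 hr cells were not stimulated. The labels name neither the Cre line, the strain, the age of the mice nor the purification method, and nothing in them ties a replicate to a mouse of its own, so p-values measure the spread between these libraries, which may be technical.

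Myeloid cells, red cell precursors and megakaryocytes share the spleen with B cells. Red pulp macrophages clear old red cells and recycle their iron, neutrophils and their precursors carry granules loaded with antimicrobial proteins, and mouse spleen keeps erythroid and megakaryocytic precursors into adult life. The granule proteins, alpha globin, the C1q chains and platelet chemokines are made in these cells and are not known as products of resting B cells. Levels below are CPM after scaling by the trimmed mean of M-values, so they are not plain shares of a library's counts. Each library total was multiplied by a factor between 1.28 and 1.42 at 0 hr and between 0.723 and 0.766 at 48 hr. Plain shares are therefore higher than these CPM at 0 hr and lower than them at 48 hr. Overlap between times was judged on the scaled values and could differ on plain shares. Fewer cells of a type and less RNA per cell cannot be told apart in such bulk libraries, and values are not corrected for transcript length, so they are compared between libraries and not between genes. Values of a group are listed in the order of its replicates.

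Library totals ranged from 38956484 to 53189198 counts. Chd4 itself had 51.3, 38.8 and 74.7 CPM in KO 48 hr libraries, against 100.02, 70.6 and 92.8 CPM in KO 0 hr libraries. WT levels of Chd4 were 102, 96.1 and 123 CPM at 48 hr, against 99.4, 68.1 and 92.8 CPM at 0 hr. The 3 KO 48 hr libraries lay below the 3 WT 48 hr libraries, but at 0 hr the genotypes overlapped, so KO and WT at 0 hr mean libraries labelled so. Xist, the long RNA of the inactive X chromosome, was between 0.856 and 1.59 CPM in the 6 KO libraries. In the 6 WT libraries it was between 75.4 and 293 CPM. Ddx3y, a gene of the Y chromosome, was between 91.8 and 139 CPM in KO and between 20.8 and 28.3 CPM in WT libraries. Differences between genotypes therefore cannot be told apart from differences in these Xist and Ddx3y levels, or from a difference in sex. Of the B cell markers, Cd79a was between 789 and 2825 CPM and Ms4a1 between 1075 and 2769 CPM over the 12 libraries. Over time, 6 of 10 B cell markers were called lower and 1 higher in each genotype (edgeR, adjusted p below 0.05). Of all genes, 37.7% were lower and 33% higher in KO, and 40.9% and 33% in WT. Mean Cd79a was 862 CPM in KO and 899 CPM in WT at 48 hr, against 2611 and 2528 CPM at 0 hr. Mean Cr2 was 37.6 and 23.1 CPM at 48 hr, against 814 and 602 CPM at 0 hr. Mean Ms4a1 was 2605 and 2462 CPM at 48 hr, against 1681 and 1327 CPM at 0 hr. The summed level of 10 T cell markers was 116, 115 and 47.2 CPM in KO 48 hr libraries, against 40.1, 40.2 and 45.2 CPM in WT 48 hr libraries. It was 125, 129 and 59.1 CPM in KO 0 hr libraries, against 62.9, 65.6 and 62.5 CPM in WT 0 hr libraries. Most of that sum was Lck, and Cd3e was at 0.0493, 0.528 and 0 CPM in KO 48 hr and 0.0257, 0.05402 and 0.154 CPM in WT 48 hr libraries. At 0 hr Cd3e was at 4.86, 3.79 and 0.647 CPM in KO, against 1.68, 0.969 and 1.18 CPM in WT libraries. Of the 10 T cell markers, 1 was called higher and 0 lower in KO at 0 hr (edgeR, adjusted p below 0.05). Of all genes, 0.68% were called higher and 0.429% lower in that comparison.

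The stretches upstream of some of these genes hold letters that lineage factors are known to read. RefSeq start sites (build GRCm38.p6) were matched for 32 of the 39 genes, and the 250 bases before each start were searched on both strands. The letters searched were AGATAA (read by GATA factors of the erythroid and megakaryocytic lineages) and GAGGAAGT (read by PU.1). Also searched were TTGCNNAA (read by C/EBP factors of the granulocyte lineage) and CCNCNCCC (read by KLF factors). The letters of no motif contain those of another. The PU.1 letters occurred before 6 of the 32 genes (4 of 9 matched neutrophil, 1 of 10 monocyte and macrophage and 1 of 5 platelet genes) and before 2.44% of all 32851 RefSeq starts. The C/EBP letters occurred before 8 of the 32 (4 of 9 neutrophil, 2 of 10 monocyte and macrophage, 1 of 3 dendritic and 1 of 5 platelet genes) and before 9.56% of all starts. The GATA letters occurred before 4 of the 32 (2 of 4 erythroid, 2 of 9 neutrophil and 0 of 5 platelet genes) and 9.99% of all starts, and the KLF letters before 16 of the 32 and 45.9% of all starts. These are descriptions of letters, not of bound sites.

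Sequences are shown only for genes that hold the letters in question, so they do not stand for their lineages. They are 3 of the neutrophil granule genes that varied widely between the 0 hr libraries (Elane, S100a8, Ngp), Clec4e, the 1 gene that rose after stimulation, and the 2 erythroid genes with GATA letters (Alas2, Epor). Hba-a2 and Klf1 held no GATA letters, and Camp, which also varied widely, held neither PU.1 nor C/EBP letters. They run 5′ to 3′ on the strand of the gene, with the PU.1 letters in capitals for Elane and S100a8, the C/EBP letters for Ngp and Clec4e and the GATA letters for Alas2 and Epor. Each stops before the gene start of the GENCODE M21 annotation where that lies upstream of the RefSeq start. Elane is shown at chr10:79886062-79886246 (+ strand), S100a8 at chr3:90668821-90668977 (+ strand), Ngp at chr9:110419558-110419746 (+ strand), Clec4e at chr6:123289872-123290121 (- strand), Alas2 at chrX:150547167-150547374 (+ strand) and Epor at chr9:21963577-21963826 (- strand).
Elane: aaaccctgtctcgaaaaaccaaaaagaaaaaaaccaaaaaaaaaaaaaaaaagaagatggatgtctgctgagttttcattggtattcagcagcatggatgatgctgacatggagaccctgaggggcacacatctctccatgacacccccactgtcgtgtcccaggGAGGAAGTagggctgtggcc
S100a8: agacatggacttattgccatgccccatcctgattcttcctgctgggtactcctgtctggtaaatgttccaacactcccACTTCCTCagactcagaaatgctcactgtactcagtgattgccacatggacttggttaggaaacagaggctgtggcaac
Ngp: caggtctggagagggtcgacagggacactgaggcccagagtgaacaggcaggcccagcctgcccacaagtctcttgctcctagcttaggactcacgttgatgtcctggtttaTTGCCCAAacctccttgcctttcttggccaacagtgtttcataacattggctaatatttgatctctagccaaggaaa
Clec4e: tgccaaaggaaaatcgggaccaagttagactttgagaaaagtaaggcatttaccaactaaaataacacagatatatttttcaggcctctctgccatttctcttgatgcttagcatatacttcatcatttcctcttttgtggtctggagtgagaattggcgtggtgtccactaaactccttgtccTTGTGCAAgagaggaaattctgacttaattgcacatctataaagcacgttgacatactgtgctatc
Alas2: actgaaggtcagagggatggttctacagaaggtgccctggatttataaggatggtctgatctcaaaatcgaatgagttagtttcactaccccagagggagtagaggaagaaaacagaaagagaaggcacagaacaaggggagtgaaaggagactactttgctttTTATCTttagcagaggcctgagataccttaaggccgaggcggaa
Epor: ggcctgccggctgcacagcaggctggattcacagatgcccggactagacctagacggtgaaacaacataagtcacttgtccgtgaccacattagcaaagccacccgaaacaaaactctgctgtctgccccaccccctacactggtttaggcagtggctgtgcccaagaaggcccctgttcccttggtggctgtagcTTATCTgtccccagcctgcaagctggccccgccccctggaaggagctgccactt

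After 48 hr of LPS and IL-4, most of these transcripts were at a lower scaled level than at 0 hr, in both genotypes. In KO cells 34 of the 39 genes fell and 1 rose (edgeR, adjusted p below 0.05), where 37.7% of all 19125 genes tested were called lower and 33% higher. In WT cells 36 of 39 fell and 1 rose, where 40.9% of all genes were called lower and 33% higher. Only 15 of the 39 genes, and 15364 of all genes, passed the filter on low counts when the 48 hr libraries were filtered alone. The rest of the 39 had passed through their 0 hr level, so the filter itself favoured falls among them. The counts of falls in this paragraph are therefore descriptions, and the shares over all genes are not a like comparison. With upper-quartile scaling, which moves the whole transcriptome, 10481 of all genes were lower and 4231 higher in KO, against 7206 and 6311 with the scaling used here; the matching counts in WT were 10944 and 4180, against 7827 and 6311. The median log2 fold change of the 39 genes was -4.89 in KO and -5.50 in WT, or -5.49 in WT with genes at 0 counts set at their bound, and the median of all genes was -0.30 in KO and -0.39 in WT. A fitted fall of at least 10-fold was seen for 27 of 39 genes in KO (4.77% of all genes) and 28 of 39 in WT (5.28% of all genes). All 3 libraries of 48 hr lay below all 3 of 0 hr for 28 of 39 genes in KO (39.5% of all genes) and 36 of 39 in WT (44.9% of all genes), and above them for 1 gene in KO (33% of all genes) and 1 in WT (34.9% of all genes).

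**Figure D1:**
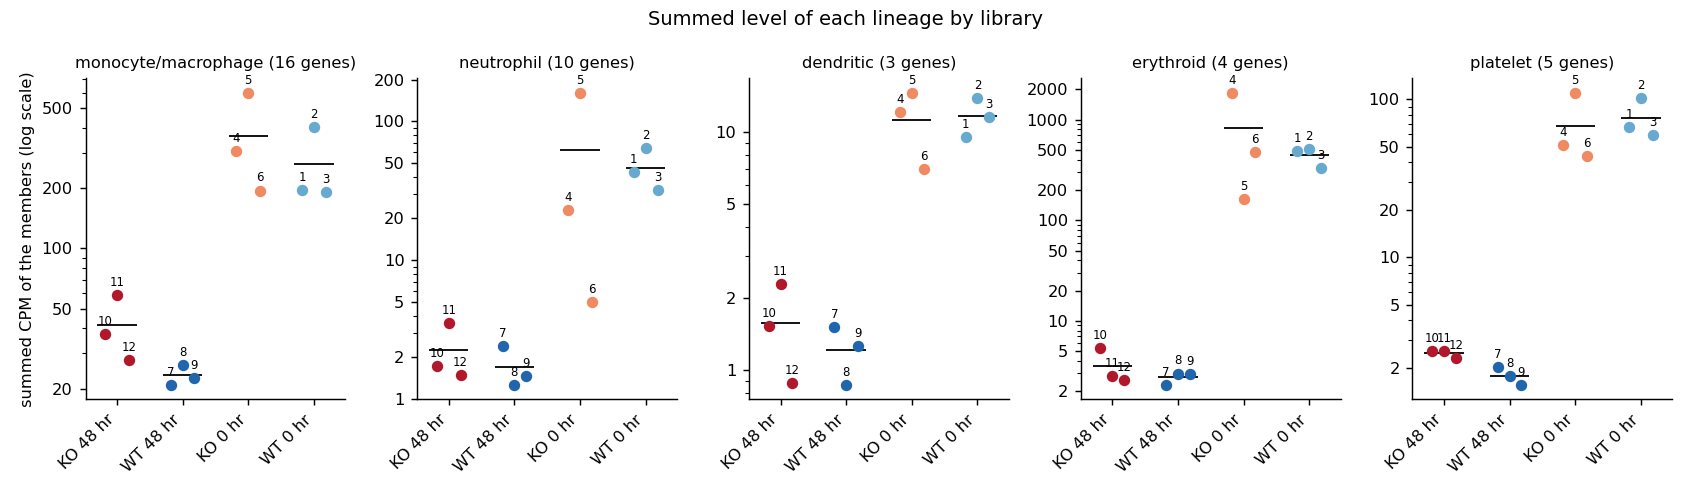
Summed CPM of the member genes of each lineage (y axis, log scale) in each of the 12 libraries, by group, with replicate numbers above the points and group means as bars. In all 5 lineages each 48 hr library lies below each 0 hr library. The 3 KO 0 hr libraries are spread more widely than the 3 WT 0 hr libraries in all 5 lineages, most of all for neutrophil and erythroid genes.

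**Figure D2:**
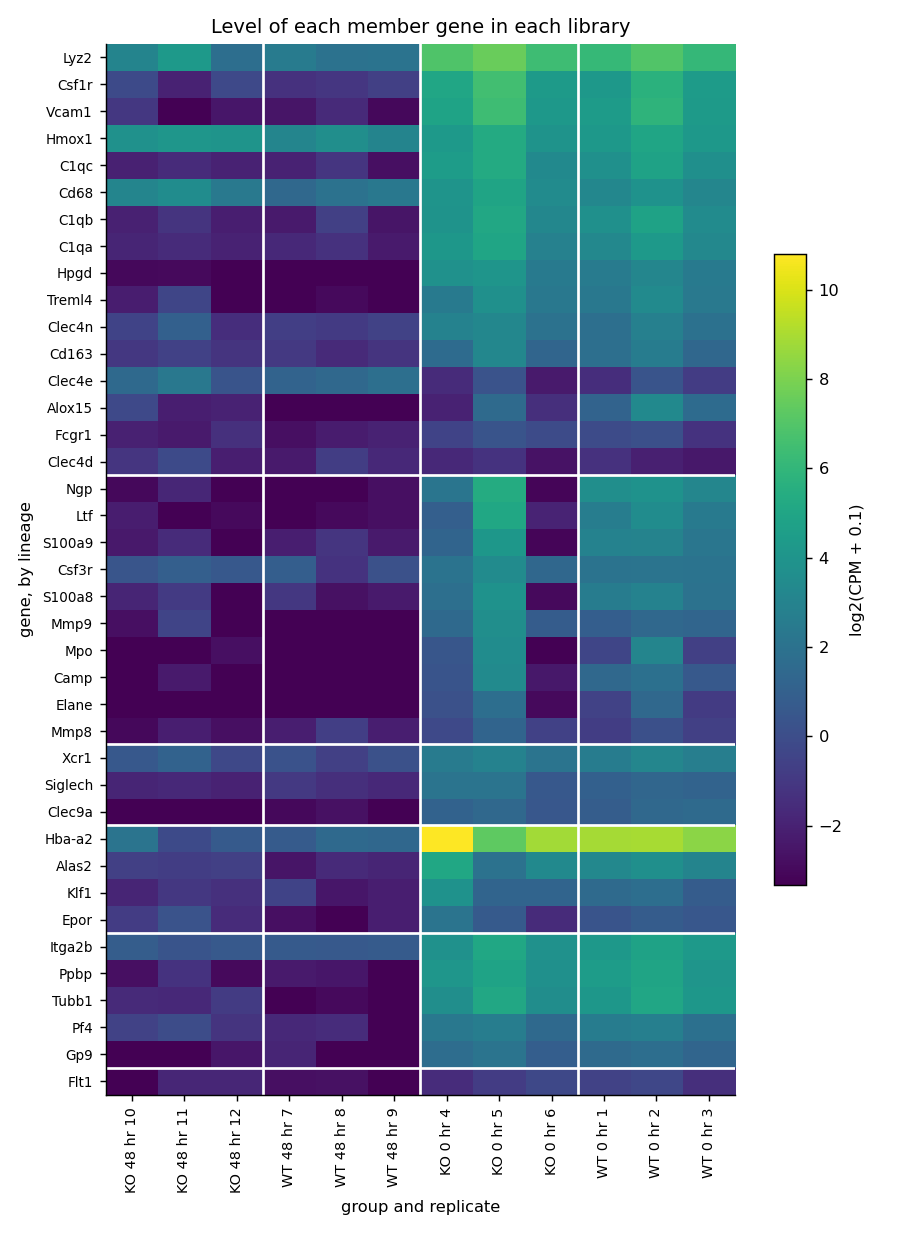
Level of each of the 39 genes (rows, by lineage, with Flt1 last) in each of the 12 libraries (columns, by group and replicate), as log2(CPM + 0.1) on the colour scale. The 48 hr columns are dark for most genes, with Lyz2, Hmox1, Cd68 and Clec4e among the rows that stay visible, and the Hba-a2 row is brightest in KO 0 hr replicate 4.

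Of the monocyte and macrophage genes, 12 of 16 fell and 1 rose in KO, and 14 of 16 fell and 1 rose in WT. Their summed level was 37.4, 58.8 and 27.8 CPM in KO 48 hr libraries and 20.9, 26.2 and 22.6 CPM in WT 48 hr libraries, against 305, 597 and 195 CPM in KO 0 hr libraries and 195, 403 and 190.3 CPM in WT 0 hr libraries. The 48 hr sum was 11.3% of the 0 hr mean in KO and 8.85% in WT. No 48 hr library reached a 0 hr library.

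Lyz2, the myeloid lysozyme, had 8.03, 19.9 and 3.397 CPM in KO 48 hr libraries, against 122, 190.2 and 84.8 CPM in KO 0 hr libraries. WT levels of Lyz2 were 5.66, 3.92 and 4.09 CPM at 48 hr, against 69.2, 125 and 66.5 CPM at 0 hr. Both genotypes fell without overlap, with a log2 fold change of -3.66 ± 0.51 (SE) in KO (edgeR adjusted p = 2.26e-05) and -4.25 ± 0.53 in WT (edgeR adjusted p = 7.85e-06). Csf1r, the receptor for the macrophage growth factor CSF1, had 0.813, 0.158 and 0.752 CPM in KO 48 hr libraries, against 32.2, 93.2 and 20.4 CPM in KO 0 hr libraries. WT levels of Csf1r were 0.309, 0.378 and 0.537 CPM at 48 hr, against 18.5, 51.7 and 21.3 CPM at 0 hr. It fell in both genotypes, to less than 1 CPM in each 48 hr library, with a log2 fold change of -6.39 ± 0.69 in KO and -6.21 ± 0.71 in WT (edgeR adjusted p = 1.90e-06 and 3.08e-06). Vcam1, an adhesion molecule that red pulp macrophages carry, had 0.394, 0 and 0.0778 CPM in KO 48 hr libraries, against 29.01, 84.3 and 18.7 CPM in KO 0 hr libraries. WT levels of Vcam1 were 0.0772, 0.216 and 0.0256 CPM at 48 hr, against 21.8, 59.1 and 20.9 CPM at 0 hr. In KO 48 hr replicate 11 it was not detected, and the log2 fold change was -8.07 ± 0.87 in KO and -8.31 ± 0.91 in WT (edgeR adjusted p = 1.65e-06 and 1.98e-06).

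The 3 chains of C1q, the first component of the classical complement pathway, are encoded side by side on chromosome 4, with gaps of 3.6 kb between C1qb and C1qc and 2.9 kb between C1qc and C1qa. C1qc had 0.148, 0.237 and 0.156 CPM in KO 48 hr libraries, against 22.6, 39.6 and 10.5 CPM in KO 0 hr libraries. WT levels of C1qc were 0.154, 0.351 and 0.0512 CPM at 48 hr, against 13.7, 27.8 and 12.9 CPM at 0 hr. At 0 hr all 3 genes were highest in KO replicate 5 and lowest in KO replicate 6, and they fell with log2 fold changes between -7.06 and -6.57 in KO and between -6.61 and -5.98 in WT (largest edgeR adjusted p = 2.19e-06 in KO and 3.14e-06 in WT). Hpgd, which inactivates prostaglandins, had 0.0246, 0.0264 and 0 CPM in KO 48 hr libraries, against 13.9, 16.5 and 5.44 CPM in KO 0 hr libraries. WT levels of Hpgd were 0, 0 and 0 CPM at 48 hr, against 5.77, 8.93 and 5.45 CPM at 0 hr. It fell in both genotypes (686-fold, exact 95% interval 189.6 to 5667, in KO), and with 0 counts in all 3 WT 48 hr libraries the fall in WT was at least 254-fold, computed with 3 counts in the group as the floor. Treml4, a receptor of splenic macrophages and dendritic cells, had 0.123, 0.686 and 0 CPM in KO 48 hr libraries, against 5.56, 13.3 and 5.01 CPM in KO 0 hr libraries. WT levels of Treml4 were 0, 0.02701 and 0 CPM at 48 hr, against 4.95, 10.7 and 5.18 CPM at 0 hr. Its log2 fold change was -4.89 ± 0.79 in KO (edgeR adjusted p = 9.03e-05) and its fall was 783-fold, exact 95% interval 140.2 to 30942, in WT, where a single count was left.

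Cd163, the scavenger receptor for haemoglobin bound to haptoglobin, fell to 0.394, 0.554 and 0.337 CPM in KO 48 hr libraries, against 2.94, 9.13 and 2.29 CPM in KO 0 hr libraries. In WT it fell to 0.412, 0.216 and 0.333 CPM at 48 hr, against 3.49, 6.03 and 2.53 CPM at 0 hr. Fcgr1, the high-affinity receptor for IgG, also fell in both genotypes (log2 fold change -2.28 ± 0.55 in KO and -2.76 ± 0.59 in WT, edgeR adjusted p = 0.00219 and 8.57e-04). Alox15, a lipoxygenase of resident macrophages and eosinophils, had 0.764, 0.132 and 0.156 CPM in KO 48 hr libraries, against 0.152, 2.82 and 0.279 CPM in KO 0 hr libraries. WT levels of Alox15 were 0, 0 and 0 CPM at 48 hr, against 2.14, 10.5 and 3.02 CPM at 0 hr. It was at 0 counts in all 3 WT 48 hr libraries, a fall of at least 192-fold in WT, and in KO its times overlapped, with a log2 fold change of -1.62 ± 1.06 (edgeR adjusted p = 0.189). Without KO 0 hr replicate 5 the KO value turned to 0.69 (edgeR adjusted p = 0.514).

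Cd68 and Hmox1 changed least among the 14 macrophage genes that fell in WT. Cd68, a lysosomal glycoprotein, had 8.4, 11.4 and 5.06 CPM in KO 48 hr libraries, against 15.6, 30.02 and 11.1 CPM in KO 0 hr libraries. WT levels of Cd68 were 2.68, 3.86 and 4.86 CPM at 48 hr, against 9.34, 14.5 and 8.94 CPM at 0 hr. Its log2 fold change was -1.19 ± 0.37 in KO (edgeR adjusted p = 0.0113) and -1.52 ± 0.38 in WT (edgeR adjusted p = 0.00283), and KO 48 hr replicate 11 overlapped KO 0 hr replicate 6. The KO call was lost without KO 0 hr replicate 5 (log2 fold change -0.69, edgeR adjusted p = 0.089). Hmox1, haem oxygenase 1, which breaks down haem, had 14.1, 17.3 and 15.8 CPM in KO 48 hr libraries, against 19.6, 39.2 and 14.95 CPM in KO 0 hr libraries. WT levels of Hmox1 were 8.45, 12.7 and 8.19 CPM at 48 hr, against 18.2, 31.9 and 18.4 CPM at 0 hr. It fell in WT (-1.22 ± 0.33, edgeR adjusted p = 0.00413), while the KO groups overlapped (-0.64 ± 0.32, edgeR adjusted p = 0.0881).

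Neighbouring C-type lectin receptors on chromosome 6 moved in different directions. Clec4n (Dectin-2), Clec4d (MCL) and Clec4e (Mincle), receptors for fungal and mycobacterial glycolipids and polysaccharides, lie in that order with gaps of 15.1 and 6.5 kb. Clec4e had 2.78, 4.91 and 1.17 CPM in KO 48 hr libraries, against 0.228, 1.11 and 0.103 CPM in KO 0 hr libraries. WT levels of Clec4e were 2.16, 2.67 and 3.43 CPM at 48 hr, against 0.263, 1.17 and 0.474 CPM at 0 hr. Each 48 hr library exceeded each 0 hr library of its genotype, with a log2 fold change of 2.61 ± 0.75 in KO (edgeR adjusted p = 0.00715) and 2.12 ± 0.74 in WT (edgeR adjusted p = 0.0193). Clec4n had 0.616, 1.93 and 0.259 CPM in KO 48 hr libraries, against 7.56, 9.15 and 3.84 CPM in KO 0 hr libraries. WT levels of Clec4n were 0.515, 0.432 and 0.588 CPM at 48 hr, against 3.47, 7.06 and 3.69 CPM at 0 hr. It fell in both genotypes (-2.87 ± 0.57 in KO and -3.20 ± 0.59 in WT, edgeR adjusted p = 4.73e-04 and 2.64e-04), while Clec4d overlapped between times and was not called (1.09 ± 0.78 in KO and 0.58 ± 0.81 in WT, edgeR adjusted p = 0.223 and 0.525). The WT call of Clec4e was lost without WT 0 hr replicate 1 or 3, without WT 48 hr replicate 9 and with upper-quartile scaling, with edgeR adjusted p up to 0.083. With transcripts in place of genes as features, none of the 39 genes was called higher at 48 hr, in KO or in WT.

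All 10 neutrophil genes fell in KO and 9 of 10 in WT. Their summed level was 1.72, 3.56 and 1.504 CPM in KO 48 hr libraries and 2.42, 1.27 and 1.46 CPM in WT 48 hr libraries, against 22.9, 160.1 and 5.03 CPM in KO 0 hr libraries and 42.9, 64.1 and 31.9 CPM in WT 0 hr libraries. The KO 0 hr libraries spanned more than an order of magnitude, and the lowest of them, replicate 6, still lay above each KO 48 hr library. In replicate 6 most of the sum came from Csf3r, Mmp9 and Mmp8, at 2.499, 1.62 and 0.573 CPM. Gene by gene, all KO 48 hr libraries lay below all KO 0 hr libraries for 5 of the 10 (39.5% of all genes).

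Ngp, a granule protein of maturing neutrophils, had 0.0246, 0.185 and 0 CPM in KO 48 hr libraries, against 4.405, 41.97 and 0.0147 CPM in KO 0 hr libraries. WT levels of Ngp were 0, 0 and 0.0512 CPM at 48 hr, against 12.7, 14.6 and 8.77 CPM at 0 hr. KO 0 hr replicate 6 was inside the range of the 48 hr libraries, and the log2 fold change was -7.77 ± 1.77 in KO (edgeR adjusted p = 0.00151), while in WT the fall was 685-fold, exact 95% interval 189 to 5656. Ltf, lactoferrin of the specific granules, had 0.123, 0 and 0.0259 CPM in KO 48 hr libraries, against 1.84, 34.4 and 0.162 CPM in KO 0 hr libraries. WT levels of Ltf were 0, 0.02701 and 0.0512 CPM at 48 hr, against 6.3, 11.6 and 5.48 CPM at 0 hr. Its groups did not overlap over time, at -7.82 ± 1.71 in KO (edgeR adjusted p = 0.00111) and 293-fold, exact 95% interval 99.9 to 1421, in WT. S100a9, which pairs with S100a8 to form calprotectin and lies 22.6 kb from it on chromosome 3, had 0.0985, 0.237 and 0 CPM in KO 48 hr libraries, against 2.28, 17.4 and 0.0147 CPM in KO 0 hr libraries. WT levels of S100a9 were 0.129, 0.351 and 0.102 CPM at 48 hr, against 7.51, 7.77 and 4.48 CPM at 0 hr. The KO times overlapped through replicate 6 and the WT times did not, with log2 fold changes of -5.85 ± 1.49 in KO and -5.08 ± 1.40 in WT (edgeR adjusted p = 0.00318 and 0.00501).

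S100a8 fell likewise, with a log2 fold change of -4.91 ± 1.36 in KO and -4.98 ± 1.37 in WT (edgeR adjusted p = 0.00544 and 0.00505). The genes of the primary granules were not detected or nearly so at 48 hr. Elane, neutrophil elastase, was at 0 counts in all 6 stimulated libraries, against 1.03, 3.28 and 0.0294 CPM in KO 0 hr libraries and 0.597, 2.65 and 0.439 CPM in WT 0 hr libraries. That is a fall of at least 56.6-fold in KO and at least 44.96-fold in WT. Mpo, myeloperoxidase, had 0, 0 and 0.0519 CPM in KO 48 hr libraries, against 1.25, 11.7 and 0 CPM in KO 0 hr libraries. WT levels of Mpo were 0, 0 and 0 CPM at 48 hr, against 0.684, 8.499 and 0.545 CPM at 0 hr. It fell by at least 116-fold in WT and by 259.5-fold in KO, exact 95% interval 71.6 to 2147, which covers counting error only. The KO times overlapped, because Mpo was at 0 CPM in KO 0 hr replicate 6 and 0.0519 CPM in KO 48 hr replicate 12. The KO call was lost without KO 0 hr replicate 5 (edgeR adjusted p = 0.059). Camp, the cathelicidin, and Mmp9, a gelatinase, were at 0 counts in WT 48 hr libraries, falls of at least 97.6-fold and 85.7-fold, and both fell in KO (-6.75 ± 1.64 and -4.65 ± 1.04, edgeR adjusted p = 0.00302 and 0.00183).

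Csf3r, the receptor for granulocyte colony-stimulating factor, and Mmp8, neutrophil collagenase, were still detected in each 48 hr library. Csf3r had 1.23, 1.85 and 1.37 CPM in KO 48 hr libraries, against 3.99, 11.2 and 2.499 CPM in KO 0 hr libraries. WT levels of Csf3r were 1.78, 0.324 and 1.02 CPM at 48 hr, against 4.14, 4.27 and 4.04 CPM at 0 hr. It fell, with a log2 fold change of -1.99 ± 0.55 in KO and -1.99 ± 0.56 in WT (edgeR adjusted p = 0.00546 and 0.00579). Mmp8 had 0.0246, 0.132 and 0.0519 CPM in KO 48 hr libraries, against 0.778, 2.28 and 0.573 CPM in KO 0 hr libraries. WT levels of Mmp8 were 0.129, 0.513 and 0.128 CPM at 48 hr, against 0.491, 1.01 and 0.527 CPM at 0 hr. It fell in KO (-4.09 ± 0.79, edgeR adjusted p = 4.12e-04), and in WT the times overlapped (-1.39 ± 0.68, edgeR adjusted p = 0.0773). With limma-voom in place of edgeR, Ngp, Ltf, S100a8, S100a9 and Mpo were not called in either genotype, nor were Camp and Elane in KO. With no filter on low counts, the calls of Elane and Mpo were lost in both genotypes (edgeR adjusted p = 0.0679 and 0.0827 in KO, 0.0737 and 0.0808 in WT).

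The 3 dendritic cell genes fell in both genotypes. Xcr1, a chemokine receptor of type 1 conventional dendritic cells, had 1.35, 2.08 and 0.726 CPM in KO 48 hr libraries, against 5.85, 7.72 and 4.29 CPM in KO 0 hr libraries. WT levels of Xcr1 were 1.08, 0.5402 and 1.05 CPM at 48 hr, against 5.95, 8.78 and 6.57 CPM at 0 hr. Its groups did not overlap over time (-2.10 ± 0.38 in KO and -2.99 ± 0.40 in WT, edgeR adjusted p = 2.36e-04 and 1.33e-05). Clec9a, a receptor for dead cells on the same dendritic cells, had 0, 0 and 0 CPM in KO 48 hr libraries, against 2.09, 2.603 and 1.32 CPM in KO 0 hr libraries. WT levels of Clec9a were 0.0257, 0.05402 and 0 CPM at 48 hr, against 1.72, 2.61 and 2.86 CPM at 0 hr. With 0 counts in KO 48 hr libraries the fall was at least 77.6-fold, and in WT it was 91.5-fold, exact 95% interval 31.1 to 446. Siglech, a lectin of plasmacytoid dendritic cells, had 0.172, 0.211 and 0.156 CPM in KO 48 hr libraries, against 4.25, 4.27 and 1.37 CPM in KO 0 hr libraries. WT levels of Siglech were 0.412, 0.2701 and 0.205 CPM at 48 hr, against 1.88, 2.47 and 2.18 CPM at 0 hr. It fell in each genotype without overlap, with a log2 fold change of -4.18 ± 0.47 in KO and -2.87 ± 0.44 in WT (edgeR adjusted p = 2.89e-06 and 5.58e-05).

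Of the 4 erythroid genes, 3 fell in KO and 4 in WT. The alpha globin entry Hba-a2 had 4.21, 0.791 and 1.504 CPM in KO 48 hr libraries, against 1785, 156 and 462 CPM in KO 0 hr libraries. WT levels of Hba-a2 were 1.57, 2.701 and 2.53 CPM at 48 hr, against 479, 489.7 and 321 CPM at 0 hr. The log2 fold change was -8.52 ± 0.90 in KO and -7.57 ± 0.87 in WT (edgeR adjusted p = 1.71e-06 and 3.75e-06), with no overlap. Hba-a2 supplied 96.8% of the reads summed over the 4 genes, and its 2 transcript entries held counts within 1 of each other in every library, so reads of near-identical alpha globin copies could have been shared between entries and the level of a single copy is uncertain.

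Alas2, which catalyses the first step of haem synthesis in red cell precursors, had 0.542, 0.501 and 0.545 CPM in KO 48 hr libraries, against 33.5, 3.897 and 10.2 CPM in KO 0 hr libraries. WT levels of Alas2 were 0.0772, 0.216 and 0.179 CPM at 48 hr, against 9.53, 12.8 and 8.1 CPM at 0 hr. It fell, with a log2 fold change of -4.90 ± 0.65 in KO and -5.99 ± 0.74 in WT (edgeR adjusted p = 1.47e-05 and 6.80e-06). Klf1, the erythroid Krüppel-like factor that activates globin genes, had 0.172, 0.396 and 0.285 CPM in KO 48 hr libraries, against 14.6, 2.22 and 2.22 CPM in KO 0 hr libraries. WT levels of Klf1 were 0.618, 0.08102 and 0.128 CPM at 48 hr, against 2.81, 3.32 and 1.63 CPM at 0 hr. The times did not overlap in either genotype, and the log2 fold change was -4.47 ± 0.84 in KO and -3.21 ± 0.82 in WT (edgeR adjusted p = 3.35e-04 and 0.00318). Epor, the erythropoietin receptor, had 0.468, 1.13 and 0.233 CPM in KO 48 hr libraries, against 4.25, 1.49 and 0.235 CPM in KO 0 hr libraries. WT levels of Epor were 0.0515, 0 and 0.128 CPM at 48 hr, against 1.18, 1.62 and 1.32 CPM at 0 hr. It fell in WT (-4.44 ± 1.05, edgeR adjusted p = 0.00186), and the KO times overlapped through the low value of KO 0 hr replicate 6 (-1.70 ± 0.81, edgeR adjusted p = 0.0739).

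All 5 platelet genes fell in both genotypes without overlap. Their summed level was 2.54, 2.56 and 2.31 CPM in KO 48 hr libraries and 2.01, 1.78 and 1.56 CPM in WT 48 hr libraries, against 51.4, 109.6 and 43.7 CPM in KO 0 hr libraries and 67.2, 101.2 and 59.3 CPM in WT 0 hr libraries. Itga2b, the alpha chain of the platelet fibrinogen receptor, had 1.68, 1.16 and 1.43 CPM in KO and 1.52, 1.43 and 1.56 CPM in WT libraries, against 14.2, 34.4 and 13.9 CPM in KO 0 hr and 18.1, 28.2 and 19.3 CPM in WT 0 hr libraries. Its log2 fold change was -3.87 ± 0.36 in KO and -3.86 ± 0.36 in WT (edgeR adjusted p = 3.32e-07 and 3.16e-07). Ppbp, the precursor of platelet basic protein, had 0.0493, 0.317 and 0.0259 CPM in KO 48 hr libraries, against 16.7, 28.97 and 13.5 CPM in KO 0 hr libraries. WT levels of Ppbp were 0.103, 0.08102 and 0 CPM at 48 hr, against 22.5, 30.3 and 16.5 CPM at 0 hr. It fell, with a log2 fold change of -7.23 ± 0.60 in KO and -8.51 ± 0.66 in WT (edgeR adjusted p = 1.05e-07 and 4.94e-08).

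Tubb1, the beta tubulin of the platelet marginal band, had 0.222, 0.211 and 0.441 CPM in KO 48 hr libraries, against 12.3, 35.8 and 11.8 CPM in KO 0 hr libraries. WT levels of Tubb1 were 0, 0.02701 and 0 CPM at 48 hr, against 17.8, 32.6 and 17.5 CPM at 0 hr. It fell, with a log2 fold change of -6.09 ± 0.54 in KO (edgeR adjusted p = 2.47e-07) and by 2558-fold, exact 95% interval 459 to 101080, in WT, where 1 count was left over 3 libraries. Pf4, platelet factor 4, whose gene lies 2.4 kb from Ppbp on chromosome 5, had 0.591, 0.871 and 0.337 CPM in KO 48 hr libraries, against 4.97, 6.15 and 2.76 CPM in KO 0 hr libraries. WT levels of Pf4 were 0.206, 0.243 and 0 CPM at 48 hr, against 5.97, 6.84 and 3.62 CPM at 0 hr. Its log2 fold change was -2.94 ± 0.55 in KO and -5.18 ± 0.65 in WT (edgeR adjusted p = 3.10e-04 and 7.46e-06). Gp9, a subunit of the platelet receptor for von Willebrand factor, fell 119-fold, exact 95% interval 40.7 to 581, in KO and with a log2 fold change of -5.50 ± 0.83 in WT (edgeR adjusted p = 4.36e-05). Flt1 stayed below 1 CPM in all 12 libraries and fell in WT (-3.81 ± 0.97, edgeR adjusted p = 0.00298) and in KO (-1.98 ± 0.82, edgeR adjusted p = 0.04299). Leaving out any of the 3 WT libraries of 0 hr, or replicates 5, 6 and 10 of KO in turn, ended its KO call (edgeR adjusted p up to 0.148), as did fitting only the KO libraries (edgeR adjusted p = 0.0573) and DESeq2 (adjusted p = 0.0501).

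**Figure D3:**
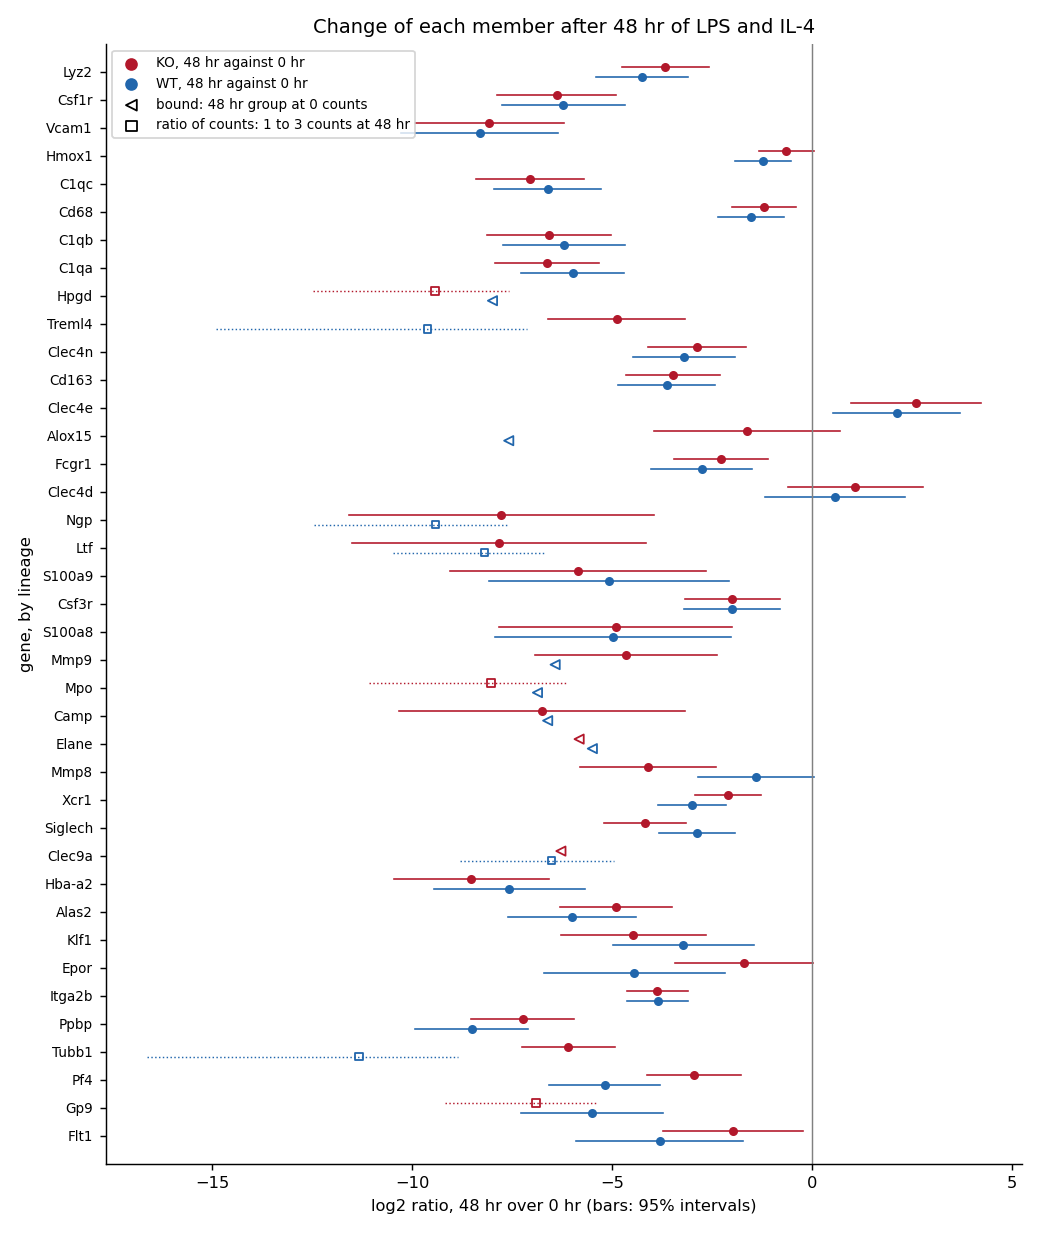
Log2 ratio of 48 hr over 0 hr for each of the 39 genes (rows, by lineage), KO above WT, with 95% intervals: filled points are edgeR estimates, open triangles are bounds where the 48 hr group held 0 counts, and open squares are ratios of counts where it held 1 to 3. Clec4e lies to the right of 0 in both genotypes, Clec4d spans 0, and the points of the other genes lie to the left.

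Further genes of the same lineages, 82 of which were tested, mostly fell as well. In KO 61 of the 82 fell and 6 rose, with a median log2 fold change of -2.98, and in WT 64 fell and 6 rose, with a median of -3.10. Of all genes, 37.7% were called lower and 33% higher in KO, and 40.9% lower and 33% higher in WT. Among the further neutrophil genes, 4 of the 12 tested were lower and 1 higher in KO, and 7 were lower and 1 higher in WT. The share of them called lower in KO was not above that of all genes. Their summed level was 28.8, 27.1 and 38.7 CPM in KO 48 hr libraries, against 20.8, 51.3 and 12.3 CPM in KO 0 hr libraries. In WT it was 42.1, 50.7 and 39.8 CPM at 48 hr, against 24.7, 30.8 and 23.4 CPM at 0 hr, above each 0 hr library. Without Il1r2, left out after its values were seen, the sum was 9.26, 14.6 and 5.42 CPM in KO 48 hr libraries, against 20.4, 49.7 and 11.97 CPM in KO 0 hr libraries, with overlap. The matching WT sum was 5.12, 7.48 and 5.63 CPM at 48 hr, against 23.04, 29.04 and 22.03 CPM at 0 hr, without overlap. The summed further dendritic cell genes in WT were 107, 108 and 112 CPM at 48 hr, against 96.01, 122 and 85.8 CPM at 0 hr, and overlapped. In KO the sum was 90.5, 77.4 and 93.2 CPM at 48 hr, against 99.98, 145.9 and 83.2 CPM at 0 hr, also with overlap. Flt3, which rose, supplied 46.0% of that sum over the 12 libraries. Of the 13 further dendritic cell genes tested, 9 were called lower and 3 higher in each genotype. Their median log2 fold change was -2.16 in KO and -1.92 in WT. Slc40a1, the iron exporter ferroportin of red pulp macrophages, had 0.0985, 0.0791 and 0.0778 CPM in KO 48 hr libraries, against 28.3, 79.8 and 20.4 CPM in KO 0 hr libraries. WT levels of Slc40a1 were 0.103, 0.189 and 0.154 CPM at 48 hr, against 23.4, 64.4 and 26.3 CPM at 0 hr. Hbb-bs, a beta globin gene, had 8.302, 4.64 and 2.67 CPM in KO 48 hr libraries, against 1508, 115 and 368 CPM in KO 0 hr libraries. WT levels of Hbb-bs were 9.27, 10.4 and 7.78 CPM at 48 hr, against 377, 371 and 261 CPM at 0 hr. Its KO 0 hr libraries stood in the same order as for Hba-a2. Clec1b, the platelet receptor CLEC-2, was at 0 counts in all 6 libraries at 48 hr, against 2.83, 3.76 and 1.94 CPM in KO 0 hr and 4.16, 4.13 and 2.27 CPM in WT 0 hr libraries. Among those that rose in both genotypes were Il1r2, a decoy receptor for interleukin 1 (4.74 ± 0.49 in KO and 4.56 ± 0.48 in WT, edgeR adjusted p = 1.22e-06 and 1.26e-06), and Flt3, a cytokine receptor of dendritic cell progenitors (1.49 ± 0.17 in KO and 1.78 ± 0.18 in WT, edgeR adjusted p = 4.19e-06 and 6.50e-07).

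Between genotypes in unstimulated cells, none of the 39 genes was called (edgeR, adjusted p below 0.05, where 1.11% of all genes were called), and none was called by DESeq2 (3.4% of all genes) or limma-voom (1.23% of all genes). At an unadjusted p below 0.05 there were 2 genes, against 10.7% of all genes. No gene had KO 0 hr libraries all above or all below the WT 0 hr libraries, where 7.02% of all genes were higher without overlap and 7.92% lower. The 3 KO libraries differed from each other, and which of them was high depended on the lineage.

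**Figure D4:**
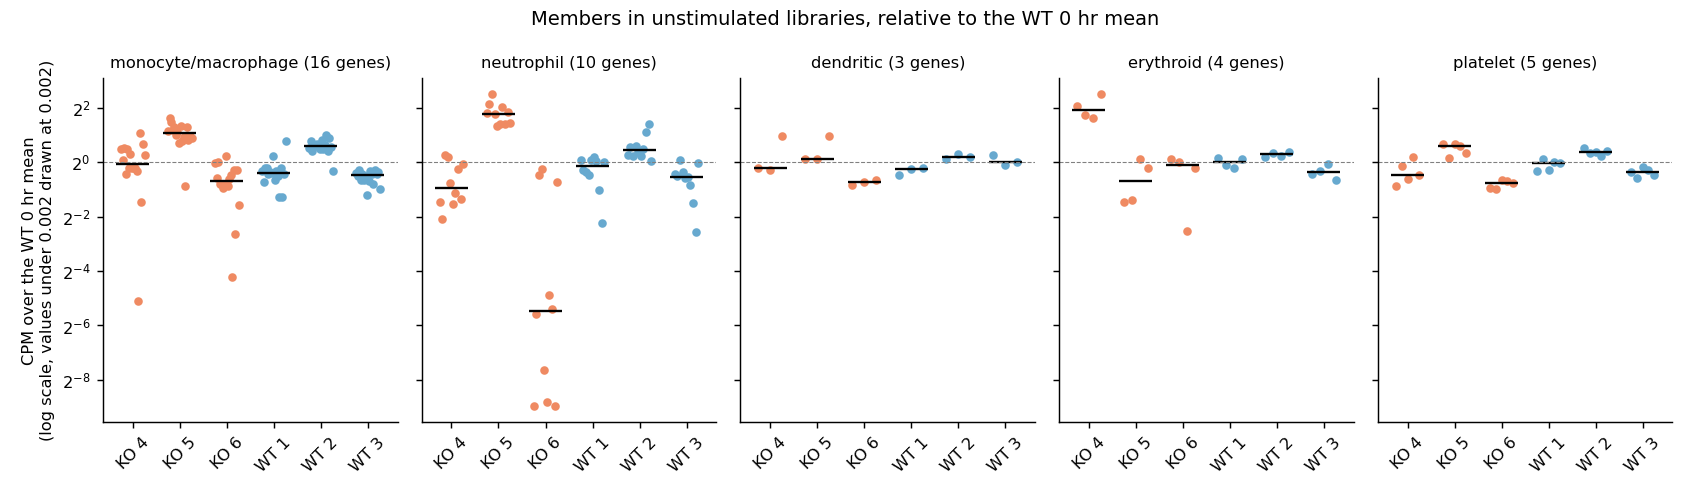
CPM of each gene in the 6 unstimulated libraries, divided by the mean of the 3 WT 0 hr libraries (y axis, log scale), KO left of WT, by lineage; points are genes, bars are medians and the dashed line marks 1. KO replicate 5 is high for monocyte/macrophage and neutrophil genes, and KO replicate 4 is high for erythroid genes. KO replicate 6 has a median below 1 in each lineage and is lowest for most neutrophil genes.

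KO 0 hr replicate 5 held the highest value of the 6 unstimulated libraries for 14 of the 16 monocyte and macrophage genes and for 10 of the 10 neutrophil genes. Its median ratio to the WT 0 hr mean was 2.09 for the monocyte and macrophage genes and 3.44 for the neutrophil genes. Within the neutrophil genes the ratio reached 5.66 for Mmp9 and 4.42 for Ltf. The same library was low for Hba-a2 and Alas2, at ratios of 0.364 and 0.384.

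KO 0 hr replicate 4 was highest for all 4 erythroid genes, with a median ratio of 3.73. The ratios were 4.15 for Hba-a2, 3.305 for Alas2, 3.101 for Epor and 5.64 for Klf1. Without Hba-a2 the erythroid sum was 52.4, 7.61 and 12.7 CPM in KO 0 hr libraries, against 13.5, 17.8 and 11.1 CPM in WT 0 hr libraries, so replicate 4 stood above the rest with or without globin. In the neutrophil genes the same library was below the WT mean for 8 of 10, with a median ratio of 0.523.

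KO 0 hr replicate 6 was lowest for 9 of the 10 neutrophil genes and for all 5 platelet genes. It was also lowest for all 3 dendritic cell genes and for 9 of the 16 monocyte and macrophage genes. Several granule genes were nearly absent from it, at 0.00122 of the WT mean for Ngp, 0.00506 for S100a8, 0.0239 for Elane and 0 for Mpo. In the same library Csf3r stood at 0.602, Mmp9 at 0.718 and Mmp8 at 0.849 of the WT mean. The platelet genes were reduced evenly there, with a median ratio of 0.585. The median ratio was 0.605 for dendritic cell, 0.616 for monocyte and macrophage and 0.933 for erythroid genes.

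Among the WT 0 hr libraries replicate 2 was high, with a summed monocyte and macrophage level of 403 CPM, where replicates 1 and 3 had 195 and 190.3 CPM. Of the neutrophil genes, Mpo had 0.684, 8.499 and 0.545 CPM and Elane 0.597, 2.65 and 0.439 CPM in them, high in replicate 2 for both, and in KO the same pair was highest in replicate 5. Ngp, a gene of later granules, was at 12.7, 14.6 and 8.77 CPM in the same WT libraries, where replicates 1 and 2 were nearly equal. Some fitted differences between genotypes turned with a single library: without KO 0 hr replicate 5 the log2 fold change of Ngp was -2.46, against 0.37 with it, and without KO 0 hr replicate 4 that of Hba-a2 was -0.47, against 0.90 with it, none of them called by edgeR.

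Among the genes with most reads in their lineage, the log2 fold change of KO against WT at 0 hr was 0.61 ± 0.45 for Lyz2, 0.67 ± 0.51 for Csf1r, 0.38 ± 0.55 for Vcam1, 0.64 ± 1.07 for Ltf, 0.60 ± 0.38 for Siglech and -0.07 ± 0.30 for Itga2b. Over the 3 such genes of each lineage the values ran from -0.26 for Clec9a to 1.29 for Klf1. Alox15 had the only fitted fall at an unadjusted p below 0.05 among the 39 genes (-2.25 ± 0.98, edgeR adjusted p = 0.432), with 0.152, 2.82 and 0.279 CPM in KO 0 hr libraries, against 2.14, 10.5 and 3.02 CPM in WT 0 hr libraries, where KO replicate 5 lay inside the WT range. Of the further lineage genes 1 was called, Apoe, the lipid carrier of macrophages, which fell to 81.8, 134 and 109 CPM in KO, against 203, 255 and 200.4 CPM in WT (-1.02 ± 0.20, edgeR adjusted p = 0.0245), and the call was lost without KO 0 hr replicate 4 and without each of the 6 WT libraries in turn (edgeR adjusted p up to 0.0993).

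Between genotypes after stimulation, again none of the 39 genes was called by edgeR (2.02% of all genes were) or by limma-voom (1.01% of all genes), while DESeq2 called 4 higher in KO, Alox15, Epor, Pf4 and Tubb1 (5.54% of all genes were called by DESeq2). Only 15 of the 39 passed the filter on low counts when the 48 hr libraries were filtered and fitted alone, and none of the 15 was called, where 2.9% of all genes were. The other 24 had passed through their 0 hr level. At an unadjusted p below 0.05 there were 10 genes, against 14.4% of all genes, and 8 of them were higher in KO, against 8.83% of all genes. KO libraries all lay above WT libraries for 7 genes and all below for 0, where 10.7% of all genes were higher and 9.53% lower without overlap. The 7 were Cd68, Hmox1, Alox15, Alas2, Epor, Tubb1 and Pf4, and they are described here because their values were seen to separate.

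**Figure D5:**
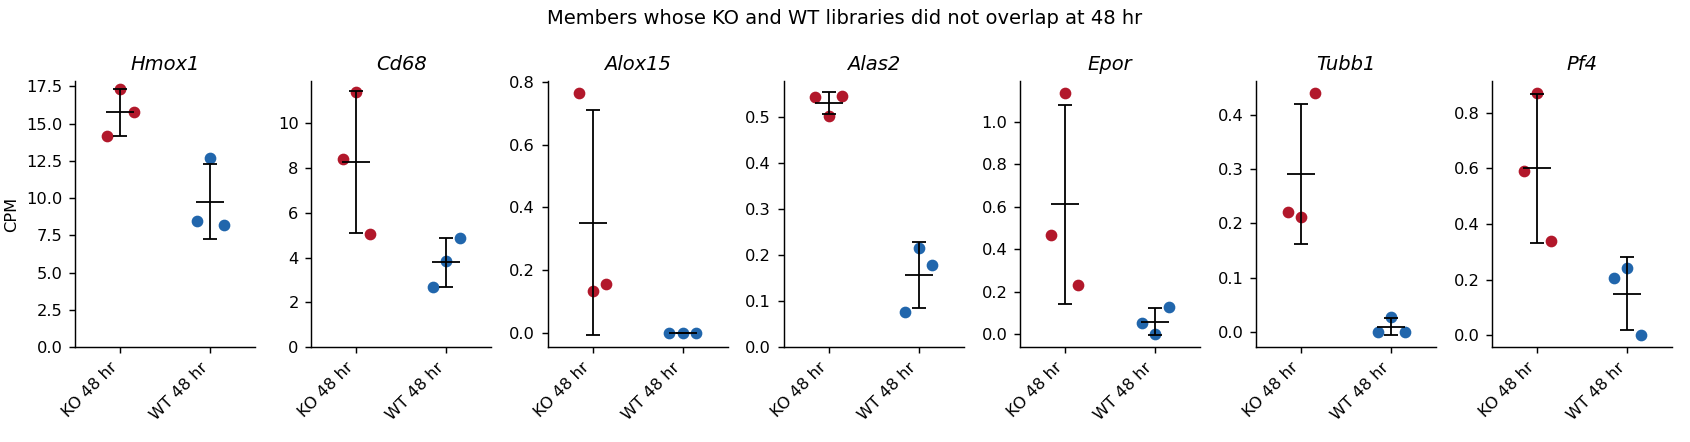
CPM (linear y axis) of the 7 genes whose KO and WT libraries did not overlap at 48 hr, KO left of WT; points are libraries and black marks are means with SD (n = 3). Hmox1 and Cd68 differ at several CPM, whereas the other 5 genes differ at around 1 CPM or less.

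Cd68 and Hmox1 were the 2 of these genes above 1 CPM in each stimulated library, with log2 fold changes of 1.12 ± 0.38 and 0.69 ± 0.33 (edgeR adjusted p = 0.171 and 0.358). Their values at 48 hr were 8.4, 11.4 and 5.06 CPM in KO, against 2.68, 3.86 and 4.86 CPM in WT, for Cd68 and 14.1, 17.3 and 15.8 CPM in KO, against 8.45, 12.7 and 8.19 CPM in WT, for Hmox1. Lyz2 pointed the same way with overlap, at 1.20 ± 0.50 (edgeR adjusted p = 0.281), and was called only without KO 48 hr replicate 12 (1.61, edgeR adjusted p = 0.038).

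The other 5 rested on few reads. Tubb1 had 34 counts over the KO 48 hr libraries and 1 over the WT 48 hr libraries, a ratio of 33.4 with an exact 95% interval 5.601 to 1357, with 0.222, 0.211 and 0.441 CPM in KO and 0, 0.02701 and 0 CPM in WT (edgeR adjusted p = 0.0853). Alox15 had 42 counts in KO and 0 in WT, at least 13.7-fold higher in KO (edgeR adjusted p = 0.215), and most of them were in replicate 10. Epor had 0.468, 1.13 and 0.233 CPM in KO, against 0.0515, 0 and 0.128 CPM in WT (3.28 ± 1.09, edgeR adjusted p = 0.157). Alas2 and Pf4 also separated, with log2 fold changes of 1.74 ± 0.82 and 1.99 ± 0.67 (edgeR adjusted p = 0.353 and 0.162), whereas Hba-a2 did not, at 4.21, 0.791 and 1.504 CPM in KO, against 1.57, 2.701 and 2.53 CPM in WT (-0.05 ± 0.82, edgeR adjusted p = 0.999). Itga2b and Ppbp overlapped between genotypes as well (-0.08 ± 0.36 and 1.05 ± 1.03). So did Csf1r (0.50 ± 0.84), Vcam1 (0.61 ± 1.47), Siglech (-0.71 ± 0.51) and Klf1 (0.03 ± 0.91), none of them called.

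The single call among the further lineage genes at 48 hr was Siglec1, the sialoadhesin of marginal zone metallophilic macrophages, which rose to 16.97, 23.3 and 5.32 CPM in KO, against 3.22, 3.16 and 2.38 CPM in WT (2.38 ± 0.45, edgeR adjusted p = 0.0173). The call was lost without KO 48 hr replicate 10, without KO 48 hr replicate 11 and without each of the 3 WT 48 hr libraries (edgeR adjusted p up to 0.101). The lowest KO value was in replicate 12, the KO 48 hr library with the highest Chd4 level and a T cell marker sum of 47.2 CPM, near those of WT. Most of that sum was Lck, at 110, 108 and 41.9 CPM in KO 48 hr libraries. WT 48 hr libraries had 35.3, 35.2 and 39.4 CPM of Lck. The part of Lck or of the other T cell markers in these differences was not tested.

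The response to stimulation was compared between genotypes by testing the difference itself. None of the 39 genes was called for the interaction, KO minus WT effect of 48 hr (0.115% of all genes were called by edgeR), and 5 were at an unadjusted p below 0.05, against 8.61% of all genes. DESeq2 called 2 for the interaction, Alox15 and Tubb1 (1.16% of all genes), and limma-voom none (0.0889% of all genes). Alox15, Epor, Hmox1 and Mmp8 passed the threshold over time in one genotype and not the other, and their interaction terms were not called (edgeR adjusted p = 0.299 for Alox15, 0.613 for Epor, 0.779 for Hmox1 and 0.486 for Mmp8). For 3 of them the missing call also depended on the processing. Epor in KO was called with a filter at 1 CPM, with upper-quartile scaling, and when KO 0 hr replicate 6 or KO 48 hr replicate 11 was left out (edgeR adjusted p between 0.00786 and 0.0484). Hmox1 in KO was called with the first 2 of these settings and without KO 0 hr replicate 6 (edgeR adjusted p between 0.00277 and 0.0354). Mmp8 in WT was called with the same 2 settings, with only the WT libraries fitted and without WT 48 hr replicate 8 (edgeR adjusted p between 0.0145 and 0.0498). Tubb1 had an interaction of 4.88 ± 1.36 on the log2 scale (edgeR adjusted p = 0.278), and without KO 0 hr replicate 5 it was called at 5.60 (edgeR adjusted p = 0.041). For the genes with most reads in their lineages the interaction was 0.59 ± 0.67 for Lyz2, -0.17 ± 1.00 for Csf1r, -1.31 ± 0.64 for Siglech, -0.95 ± 1.04 for Hba-a2 and -0.01 ± 0.46 for Itga2b, none of them called.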

How the data were processed

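RNA of purified mouse splenic B cells was amplified from total RNA with the SMART-Seq v4 Ultra Low Input kit and sequenced in paired ends, per the labels' protocols. The deposited table holds estimated counts per transcript as whole numbers. The submitters' processing notes name Salmon 0.8.2, Trimmomatic 0.36, bcl2fastq 2.20.0.422, DESeq2 1.14.1 and build mm10, and the role of each is not given in the sources used here. Because strand is not marked by this kit, a gene and its antisense partner cannot be told apart. Counts of 63759 transcripts were summed to 32699 trimmed gene symbols. Genes passing edgeR's filterByExpr (19125) were scaled by TMM and fitted over the 4 groups with edgeR's quasi-likelihood test (version 4.0.16, robust, no covariates), with Benjamini-Hochberg adjustment over all of them. Calls are genes whose adjusted p lay below 0.05. Where a group held 0 counts, folds are bounds with 3 counts over the group as the floor, and with 1 to 3 counts they are ratios with exact 95% intervals, which cover counting error only. The fit was tested on simulated data. Totals per library were 38956484 to 53189198 counts. With 3 libraries against 3, an exact permutation test cannot go below p = 0.1, so single sums are given without a test.

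The genes and lists were chosen with earlier results of these data known. Genes named are those called in a contrast, the 3 of each lineage with the highest mean CPM, those at 1 CPM or more in a group, and of the further lineage genes up to 5 called per lineage and contrast. A planned search for genes with a similar pattern is not reported, because the libraries fall into a 0 hr and a 48 hr cluster. Alternatives were DESeq2 1.42.0, limma-voom 3.58.1, other scalings and filters, separate fits, transcripts as features, and leaving out each library. Motifs were searched in RefSeq upstream sequences of build GRCm38.p6, and gene positions were taken from GENCODE M21.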

Additional observations from a re-analysis of the deposited data

How the results depend on the processing

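No paired analysis was possible because the replicate numbers 1 to 12 are each used once, so no number is shared by 2 groups. Over time, members called ranged from 28 (limma-voom) to 37 of 39 in KO and from 32 (limma-voom) to 38 in WT over all alternatives. Between genotypes at 48 hr the count of 0 became 4 with DESeq2 and 0 to 2 when a library was left out. Tubb1 was called without KO 0 hr replicate 5, and Lyz2 and Treml4 without KO 48 hr replicate 12. For the interaction it became 2 with DESeq2 and 0 to 1 when a library was left out. At 0 hr it was 0 throughout. Counts over all genes moved more: at 0 hr 650 with DESeq2, 78 with transcripts as features, 75 with only the 2 groups fitted and 79 to 426 when a library was left out. At 48 hr the counts were 1060 with DESeq2, 118 with transcripts, 193 with limma-voom and 136 to 1080 when a library was left out (1080 without KO 48 hr replicate 12). For the interaction they were 221 with DESeq2, 3 with transcripts and 3 to 90. Further lineage genes called between genotypes numbered 0 at 0 hr with only the 2 groups fitted and 0 to 3 when a library was left out. At 48 hr they numbered 4 with DESeq2, 0 with limma-voom, 4 with only the 2 groups fitted and 0 to 2 when a library was left out. Fewer samples enter the separate fits; other causes of these shifts were not tested. Upper-quartile scaling moved summed levels beyond the spread between replicates to 14.7 CPM for dendritic and 560.5 CPM for erythroid genes in WT 0 hr, 2.19, 18.5 and 1.42 CPM for erythroid, macrophage and platelet genes in WT 48 hr and 1.98 CPM for platelet genes in KO 48 hr, and it moved the median of all genes over time to -0.93 in KO and -1.06 in WT.
Sign changes occurred only among log2 fold changes that were not called. Of the 39 genes, 30 changed sign under at least 1 alternative at 0 hr, 15 at 48 hr and 24 in the interaction, and over time 1 did in KO (Alox15) and 1 in WT (Clec4d). With limma-voom alone these were 7, 6 and 6 genes in the genotype contrasts and the interaction. Values follow for the 3 genes of each lineage with the highest mean CPM. With limma-voom they were -1.75 for Ltf and -2.98 for Ngp at 0 hr, -0.19 for Vcam1 at 48 hr, and 0.0679 for Itga2b, 1.49 for S100a9 and -0.46 for Vcam1 in the interaction. Klf1 at 48 hr was -0.0185 with DESeq2 and -0.0257 with RLE scaling, and Itga2b in the interaction was 0.0215 with upper-quartile scaling. S100a9 at 0 hr, at -0.00, became 0.0045 with TMM computed without immunoglobulin, mitochondrial and ribosomal genes, 0.0012 with no filter, 0.0300 with a filter at 1 CPM and 0.0456 with only the 2 groups fitted. Ranges over fits that left out a library, for those of these 15 genes that changed sign in KO against WT at 0 hr, were Alas2 (-0.52 to 1.11), Csf1r (-0.21 to 1.29), Hba-a2 (-0.47 to 1.39), Itga2b (-0.64 to 0.16), Klf1 (-0.22 to 1.70), Ltf (-2.98 to 1.22), Ngp (-2.46 to 0.95), Ppbp (-0.61 to 0.0210), S100a9 (-2.54 to 0.58), Tubb1 (-0.91 to 0.18) and Vcam1 (-0.51 to 1.04). At 48 hr they were Hba-a2 (-0.98 to 0.29), Klf1 (-0.43 to 1.37), Ltf (-0.88 to 1.71), Ngp (-0.44 to 4.78), Ppbp (-0.70 to 1.60) and Vcam1 (-1.36 to 1.57). For the interaction they were Csf1r (-0.79 to 0.71), Hba-a2 (-1.88 to 0.42), Itga2b (-0.24 to 0.56), Klf1 (-1.71 to 0.25), Ltf (-1.52 to 3.88), Lyz2 (-0.34 to 1.01), Ngp (-0.84 to 4.38), Ppbp (-0.49 to 1.81), S100a9 (-1.97 to 1.77) and Vcam1 (-1.74 to 1.17). Genes with a handful of counts per group are limited by depth.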
